A study of Mus musculus with 8 samples.

Results

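Fibronectin and 8 integrin subunits were followed across bulk RNA sequencing libraries of primary mouse astrocytes. The genes were Fn1, which encodes fibronectin, the α subunit genes Itga5, Itga6, Itga7, Itga11 and Itgav, and the β subunit genes Itgb1, Itgb5 and Itgb8. They were chosen by name, deposited in capitals as FN1, ITGA5, ITGA6, ITGA7, ITGA11, ITGAV, ITGB1, ITGB5 and ITGB8, and all 9 were present among the 13937 genes of the deposited count table and among the 13509 genes that passed the filter on low counts. The cells came from brains of C57BL/6 pups at postnatal day 1, either wild type (WT) or lacking RGC-32 (RGC-32 KO, called the knockout here), a regulator of the cell cycle that is encoded by Rgcc. Cultures of both genotypes were grown in serum, shaken to detach neurons and oligodendrocyte precursors, and starved of serum overnight. They then received either no cytokine (control) or TGF-β for 24 h, at a concentration of 10 ng/ml. Each of the 4 groups held 2 libraries, described by the submitters as biological replicates. How many pups went into a culture was not given in the sources used here, and the knockout was not described there as limited to astrocytes.

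Integrins are receptors made of 1 α and 1 β subunit that span the cell membrane and tie the extracellular matrix to the actin cytoskeleton. Fibronectin is a large secreted glycoprotein that cells assemble into fibrils, chiefly through the receptor of the α5 and β1 subunits. Receptors that hold αv bind fibronectin, vitronectin and the latent form of TGF-β, and the pairs of αv with β8 or β6 are known for releasing active TGF-β from its latent complex. The α6 and α7 subunits pair with β1 to bind laminin, and α11 pairs with β1 to bind fibrillar collagen. In the brain, astrocytes use laminin and fibronectin receptors at the vascular basement membrane, and fibronectin is deposited in injured tissue.

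The libraries held between 14920561 and 18956038 counts. Rgcc, the targeted gene, drew 80 and 94 counts in WT control, and 215 and 362 with TGF-β. Knockout libraries held 61 and 28 counts of it in control and 64 and 26 with TGF-β, so reads were assigned to it in every knockout library, and its difference between genotypes did not pass the threshold (log2 fold change 0.97, adjusted p = 0.780 by edgeR in control, and 2.54, adjusted p = 0.133 with TGF-β). Which exons the knockout removes was not given in the sources used here, so these counts do not check the deletion. All 10 astrocyte markers examined were detected, with a summed level of 3585 to 6005 CPM, the counts of a gene scaled to its library's TMM-normalized total. Markers of other cells were detected as well. The summed level of 10 markers of microglia or macrophages lay between 1047 and 1382 CPM in all groups.

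Levels of different genes were compared per transcript length, in the FPKM values (fragments scaled to transcript length and library total) that the authors deposited. Fn1 had the highest mean of the 9 transcripts in every group, at 269 ± 27.7 FPKM in WT control and 229 ± 25.7 in knockout control (SD, n = 2). Itgb1, the β subunit shared by most matrix receptors, came next with 257 ± 20.0 FPKM in WT control, close to Fn1 and within its spread. In knockout control Itgb1 stood at 227 ± 4.26 FPKM, nearly level with Fn1, and in replicate 1 it was above Fn1 (224 against 211 FPKM). In WT control Itgb5, the β subunit of a vitronectin receptor, followed with 96.6 ± 11.1 FPKM. Itgav stood at 33.8 ± 2.89 FPKM and Itga5 at 24.6 ± 2.70. Itgb8 at 17.3 ± 0.968 FPKM and Itga6 at 15.9 ± 0.812 differed by less than the sum of their SDs. Itga7, with 6.06 ± 0.500 FPKM, and Itga11, with 2.14 ± 1.26, were the least abundant. With TGF-β the order changed in WT at the places of Itga5 and Itgav and of Itga7 and Itga11, since Itga5 reached 78.1 ± 7.80 FPKM against 55.4 ± 0.377 for Itgav, and Itga11 reached 12.2 ± 1.94 against 8.35 ± 1.32 for Itga7.

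The comparison of TGF-β with control asked how the cytokine alters these genes in each genotype. In WT astrocytes, 6 of the 9 genes were up-regulated and none was down-regulated, where a call needed an adjusted p under 0.05 and a log2 fold change of 0.6 or more in either direction. Among all genes tested, 7.72% were up-regulated by this rule. In knockout astrocytes 5 of the 9 were up-regulated and none was down-regulated, against 6.61% of all genes. By the adjusted p alone, 7 genes rose in WT (18.6% of all genes did) and 6 in the knockout (16.6% of all genes did). The median log2 fold change of the 9 genes was 0.89 in WT and 0.77 in the knockout, beside medians within 0.01 of 0 over all genes. For 7 of the 9 genes both TGF-β libraries lay above both controls, in WT (35.4% of all genes) and in the knockout (34.3%).

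**Figure D1:**
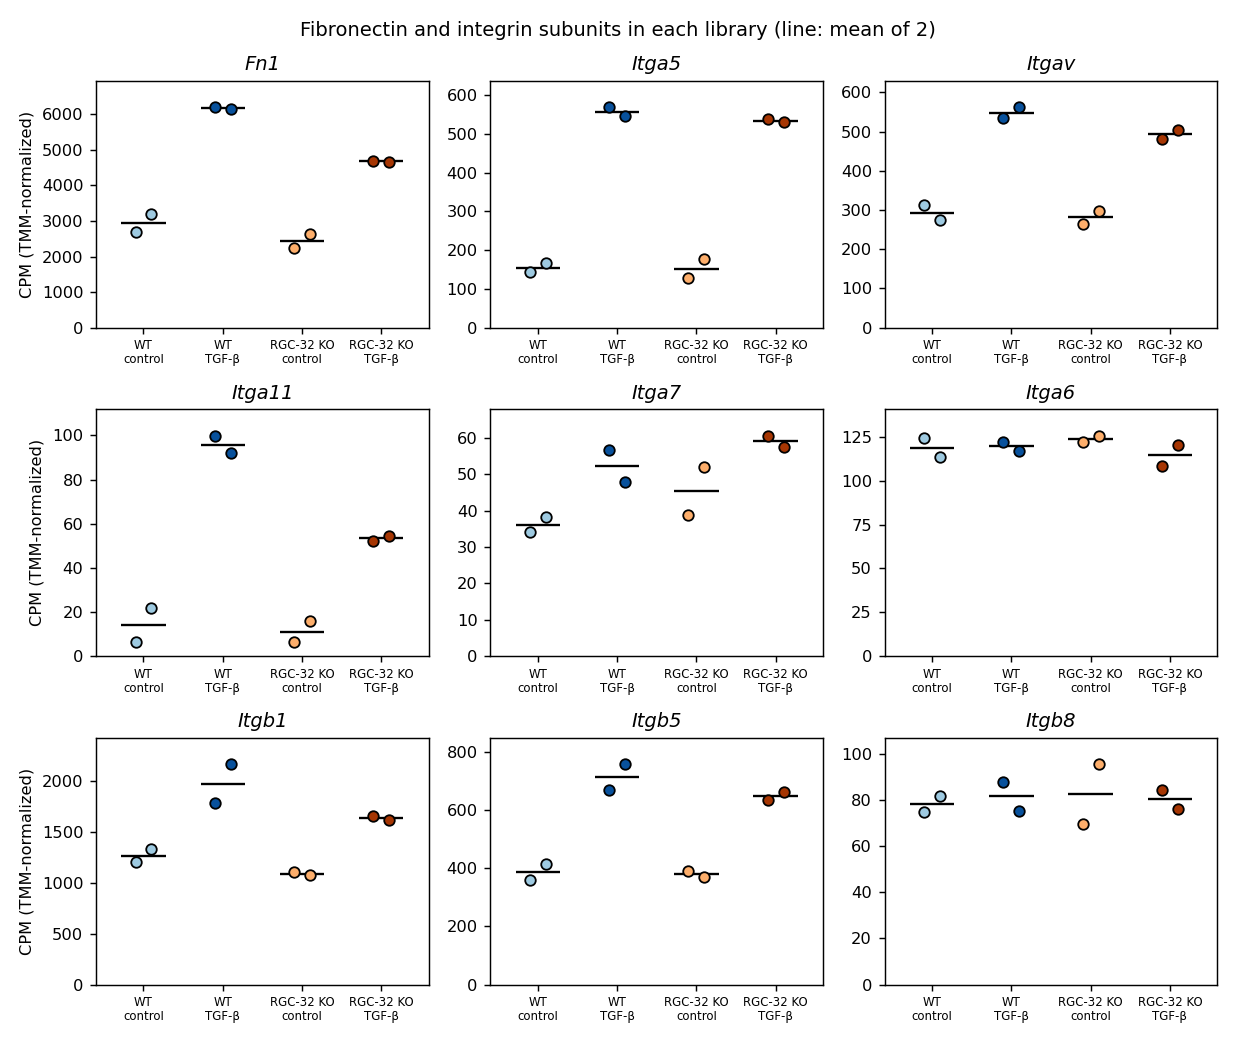
Level of each gene in each library, in CPM on linear axes that start at 0, with points for the 2 libraries of a group and a line at their mean. For Fn1, Itga5, Itgav, Itga11, Itgb1 and Itgb5 both TGF-β libraries of each genotype lie above both controls, and for Itgb8 the groups overlap.

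Fn1, the ligand, stood at 2677 and 3190 CPM in WT control and at 6192 and 6137 CPM in WT TGF-β. In the knockout it stood at 2247 and 2621 CPM in control and at 4698 and 4659 CPM with TGF-β. Both TGF-β libraries of each genotype lay far above their controls, and the WT libraries lay above knockout libraries of the same treatment. The log2 fold change was 1.07 ± 0.117 in WT (SE, adjusted p = 0.000637 by edgeR's quasi-likelihood test) and 0.94 ± 0.117 in the knockout (adjusted p = 0.00130), a 2.10-fold and a 1.92-fold rise.

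Itga5 encodes the α subunit of the main fibronectin receptor. It measured 142 and 166 CPM in WT control and 568 and 546 CPM in WT TGF-β, and 128 and 176 CPM in knockout control against 539 and 530 CPM with TGF-β. The genotypes were nearly alike in both states, and no TGF-β library came near a control. Its log2 fold change was 1.85 ± 0.142 in WT (adjusted p = 0.000181, edgeR) and 1.81 ± 0.142 in the knockout (adjusted p = 0.000231), a 3.61-fold and a 3.51-fold rise.

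Itgav, the α subunit of the vitronectin receptors and of the receptors for latent TGF-β, measured 312 and 274 CPM in WT control and 535 and 562 CPM in WT TGF-β. In the knockout it measured 265 and 297 CPM in control and 481 and 505 CPM with TGF-β. The controls of the genotypes overlapped and the treated libraries lay above them. The log2 fold change was 0.90 ± 0.0866 in WT (adjusted p = 0.000382, edgeR) and 0.81 ± 0.0866 in the knockout (adjusted p = 0.000709).

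Itga11, the α subunit of a collagen receptor best known from fibroblasts, had the largest fold change of the 9 genes and the lowest control counts. It measured 6.45 and 22.0 CPM in WT control and 99.8 and 91.9 CPM in WT TGF-β, and 6.19 and 16.0 CPM in knockout control against 52.4 and 54.2 CPM with TGF-β. The control libraries of each genotype differed from each other by more than the treated ones did. Its log2 fold change was 2.74 ± 0.474 in WT (adjusted p = 0.00423, edgeR) and 2.25 ± 0.494 in the knockout (adjusted p = 0.0128). The fold change moved with the control libraries, to 2.13 without WT control replicate 1, 3.87 without WT control replicate 2 and 3.10 without knockout control replicate 2. In the knockout the call was lost without control replicate 1 (log2 fold change 1.72, adjusted p = 0.0641) and without TGF-β replicate 2 (2.21, adjusted p = 0.0530).

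Of the laminin-binding α subunits, Itga7 rose less than Itga5, and Itga6 did not pass. Itga7 measured 34.1 and 38.3 CPM in WT control, 56.7 and 48.0 CPM in WT TGF-β, 38.9 and 52.0 CPM in knockout control and 60.6 and 57.6 CPM in knockout TGF-β. The treated libraries lay above the controls in both genotypes, but the log2 fold change of 0.53 ± 0.142 in WT (adjusted p = 0.0235, edgeR) was below the fold limit and that of 0.38 ± 0.140 in the knockout had an adjusted p of 0.0791. Averaged over genotypes, Itga7 rose by 0.46 ± 0.0994 (adjusted p = 0.00688, edgeR), also below the fold limit. Itga6 measured 113 to 125 CPM in WT control, 117 to 122 CPM in WT TGF-β, 122 to 126 CPM in knockout control and 109 to 121 CPM in knockout TGF-β. The log2 fold change of this gene was 0.0077 in WT, with a 95% interval from -0.16 to 0.18, and -0.11 in the knockout, from -0.28 to 0.06.

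Of the β subunits, Itgb5 measured 359 and 413 CPM in WT control and 671 and 758 CPM in WT TGF-β, and 391 and 371 CPM in knockout control against 635 and 663 CPM with TGF-β. The log2 fold change of this gene was 0.89 ± 0.0919 in WT (adjusted p = 0.000542, edgeR) and 0.77 ± 0.0918 in the knockout (adjusted p = 0.00111). The treated libraries were well separated from the controls. The genotypes overlapped in control. With TGF-β the WT libraries lay narrowly above the knockout libraries, as for 22.4% of all genes, and the difference did not pass (adjusted p = 0.608, edgeR).

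Itgb1 measured 1207 and 1332 CPM in WT control and 1784 and 2168 CPM in WT TGF-β, and 1105 and 1075 CPM in knockout control against 1656 and 1617 CPM with TGF-β. The log2 fold change was 0.64 ± 0.105 in WT (adjusted p = 0.00343, edgeR) and 0.59 ± 0.105 in the knockout (adjusted p = 0.00573), on either side of the fold limit of 0.6. The call of Itgb1 in WT therefore rests on that limit. It was lost without WT control replicate 1 (0.57) and without WT TGF-β replicate 2 (0.48), where the adjusted p stayed under 0.05, and likewise with upper quartile scaling (0.55) or the FPKM values (0.51). Averaged over genotypes, Itgb1 stood at 0.61 ± 0.0739, as close to the limit.

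Itgb8, the partner of αv that is known for activating latent TGF-β and is abundant in astrocytes, measured 74.9 and 81.8 CPM in WT control and 87.8 and 75.2 CPM in WT TGF-β. It measured 69.7 and 95.4 CPM in knockout control and 84.5 and 76.3 CPM with TGF-β. The groups overlapped in both genotypes, and with upper quartile scaling the sign of the WT value turned (-0.027). Its log2 fold change was 0.059 in WT, with a 95% interval from -0.28 to 0.39, and -0.039 in the knockout, from -0.37 to 0.30.

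**Figure D2:**
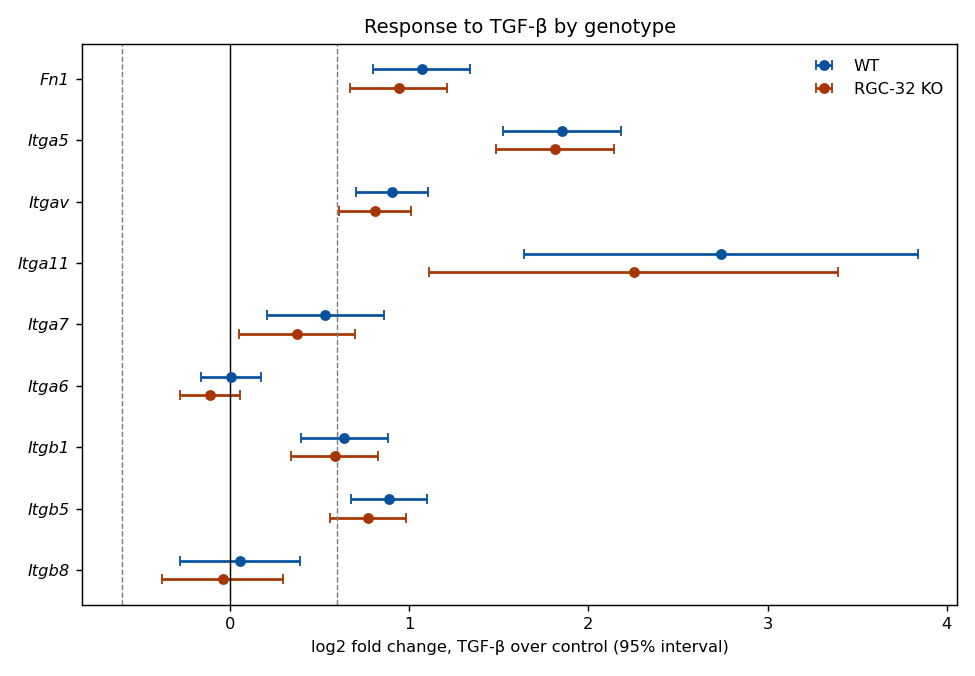
Log2 fold change of TGF-β over control for each gene, in WT (blue) and the knockout (brown), with 95% intervals from the edgeR model and dashed lines at the fold limit of 0.6 in either direction. The intervals of the genotypes overlap for each of the 9 genes, and Itga11 has the widest.

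The TGF-β response itself was compared between genotypes by the interaction term, the log2 fold change in WT minus that in the knockout. None of the 9 genes passed (0% of all genes did), and none had an unadjusted p under 0.05, against 2.82% of all genes. DESeq2 and limma-voom also called 0 of the 9. The estimates ran from 0.040 for Itga5 to 0.49 ± 0.685 (SE) for Itga11. All 9 were above 0, where 47.7% of all genes were, but each 95% interval held 0. The 9 signs come from the same 8 libraries, over which several of the genes vary together, so they are not independent. Leaving out 1 library could turn the sign for Itga5, Itga7, Itga11, Itgb1 and Itgb8. The intervals show how much could have been missed. For Itga5 the 95% interval ran from -0.41 to 0.49, for Fn1 from -0.25 to 0.51 and for Itga11 from -1.10 to 2.07.

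The comparison of WT with the knockout asked whether the genes differ by genotype at a given treatment. Without TGF-β, 0 of the 9 genes passed (0.037% of all genes did), and 1 of them had an unadjusted p under 0.05 (6.84% of all genes did). With TGF-β, 0 of the 9 passed (0.0444% of all genes did), and 2 had an unadjusted p under 0.05 (11.7% of all genes did). Averaged over the treatments, 0 of the 9 passed (0.126% of all genes did), and 3 had an unadjusted p under 0.05 (15% of all genes did), namely Fn1, Itgb1 and Itga7. DESeq2 and limma-voom called 0 of the 9 in each of these comparisons as well.

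**Figure D3:**
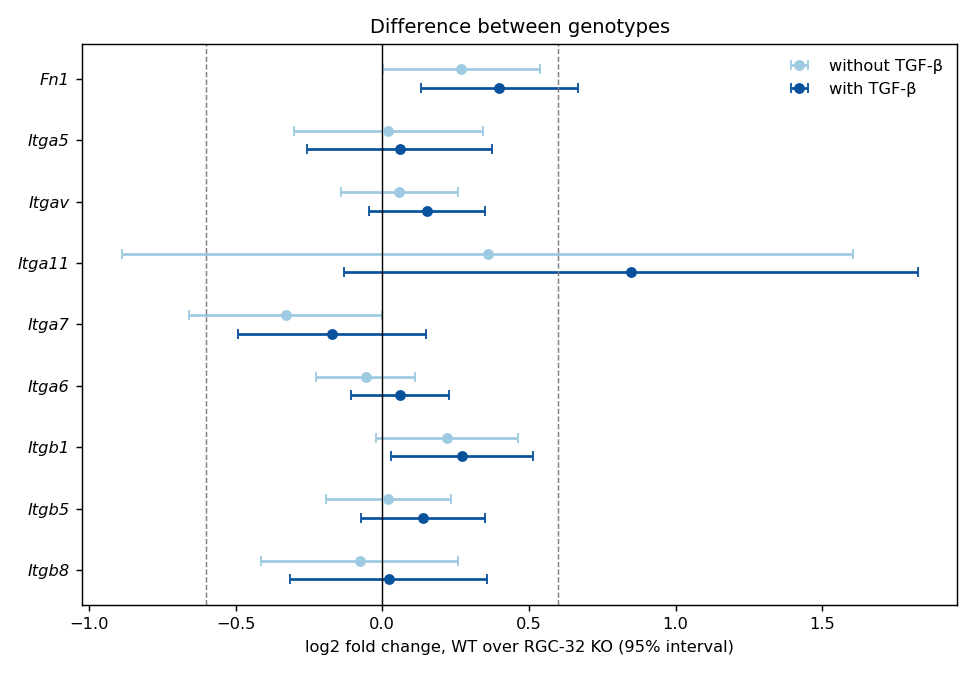
Log2 fold change of WT over the knockout for each gene, without TGF-β (light blue) and with TGF-β (dark blue), with 95% intervals from the edgeR model and dashed lines at 0.6 in either direction. Fn1 and Itgb1 lie above 0 in both treatments and Itga7 lies below 0 in both, and none passed the threshold after adjustment.

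The WT libraries lay above the knockout libraries without overlap, both without and with TGF-β, for Fn1 and Itgb1, which were 2 of the 9 genes, as for 7.51% of all genes. Fn1 was higher in WT by a log2 fold change of 0.27 ± 0.116 in control (adjusted p = 0.725, edgeR), 0.40 ± 0.116 with TGF-β (adjusted p = 0.258) and 0.33 ± 0.0818 averaged over treatments (adjusted p = 0.127). With DESeq2 the adjusted p for Fn1 was 0.0200 with TGF-β and 0.000926 averaged, at log2 fold changes under the limit of 0.6. Itgb1 was higher in WT by 0.22 ± 0.104 in control and 0.27 ± 0.104 with TGF-β (adjusted p = 0.726 and 0.376, edgeR).

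Itga11 with TGF-β stood at 99.8 and 91.9 CPM in WT and 52.4 and 54.2 CPM in the knockout, a log2 difference of 0.85 ± 0.423 with an adjusted p of 0.487 by edgeR. When the model was fitted to the 4 TGF-β libraries alone, without the controls in which Itga11 varied, the adjusted p was 0.0434, which made Itga11 the 1 gene of the 9 called there (0.03% of the 13319 genes tested in that fit were called). Itga7 went the other way, with WT below the knockout by -0.33 ± 0.143 in control (adjusted p = 0.725, edgeR) and -0.17 ± 0.138 with TGF-β (adjusted p = 0.677). Its WT libraries lay below the knockout libraries without overlap in control (15.5% of all genes did) and with TGF-β (23.9% of all genes did). The adjusted p of the remaining genes, Itga5, Itga6, Itgav, Itgb5 and Itgb8, lay between 0.538 and 0.988 in control and with TGF-β.

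Markers of other cells differed between the groups, not all in the same direction. For meningeal or perivascular fibroblasts, cells that make much fibronectin and collagen, the summed level of 10 markers was 5548 to 6982 CPM in WT control and 4691 to 4811 CPM in knockout control. With TGF-β it was 10135 to 11522 CPM in WT against 7888 to 7939 CPM in the knockout. The collagen genes Col1a1 and Col1a2 carried the rise of that sum with TGF-β. Of the 9 markers tested, these 2 were up-regulated in each genotype, while 3 were down-regulated in WT (Dcn, Pdgfra and Ogn) and 1 in the knockout (Pdgfra), and the median log2 fold change of the list was -0.32 in WT and -0.17 in the knockout.

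The astrocyte sum was 4620 to 4847 CPM in WT control, 5342 to 6005 CPM in knockout control, 3585 to 3705 CPM in WT TGF-β and 4384 to 4716 CPM in knockout TGF-β, so it was lower in WT and lower with TGF-β. With TGF-β, 2 of the 10 markers were down-regulated and 0 up-regulated in each genotype. By the adjusted p alone, 7 fell in WT and 6 in the knockout, and 1, Gja1, rose in each. Gfap was the largest part of the sum, with means of 1659 CPM in WT control and 2276 CPM in knockout control. Its TGF-β effect did not pass in either genotype. Of 6 mural cell markers listed, Kcnj8 and Abcc9 were not in the count table. The sum of the other 4 was 2456 to 2807 CPM and 2203 to 2320 CPM in WT and knockout controls, and 5489 to 6243 CPM and 5261 to 5893 CPM with TGF-β, and 3 of the 4 were up-regulated in each genotype. Acta2 made up most of that sum, with means of 2472 and 5331 CPM in WT and 2122 and 5190 CPM in the knockout. Rgs5 did not pass in either genotype. The sum of the 6 of 8 listed endothelial markers in the count table was 99.8 to 125 CPM in WT control and 73.0 to 74.7 CPM in WT TGF-β, and 101 to 127 CPM and 67.8 to 80.5 CPM in the knockout. Most of that fall was in Cdh5, with means of 65.8 and 30.8 CPM in WT and 68.1 and 37.8 CPM in the knockout. Of the 6 markers, 2 were up-regulated and 1 down-regulated in WT, and 1 was up-regulated and 2 down-regulated in the knockout. The sum of the 3 of 4 ependymal markers in the table was 328 to 385 CPM and 209 to 236 CPM in WT, and 351 to 391 CPM and 253 to 263 CPM in the knockout, and all 3 were down-regulated in WT and 1 in the knockout. Neuronal (3 of 5 markers in the table) and oligodendrocyte lineage (6 of 7) sums lay between 95.3 and 137 CPM and between 196 and 270 CPM in all groups.

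Between genotypes, no marker of these lists passed the threshold. Averaged over treatments, 2 of 5 sex-linked transcripts had an adjusted p under 0.05 (0.422% of all genes did), both of the Y chromosome and below the fold limit. These were Ddx3y (log2 fold change 0.50 ± 0.0625, higher in WT, adjusted p = 0.0270, edgeR) and Eif2s3y (0.48 ± 0.0620, adjusted p = 0.0281). The values of Kdm5d (0.31), Uty (0.33) and Xist (-0.17) did not pass. No listed marker in the count table was at 0 in any group. In bulk RNA fewer cells of a type and less RNA per cell cannot be told apart, and the part of other cells or of the sex of the pups in the values above was not tested.

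The share of each subunit among the integrin transcripts was taken from the FPKM values, over 16 α and 8 β subunit genes. Itga5 made up 14.4% ± 2.50 of the α transcripts in WT control and 30.7% ± 0.435 in WT TGF-β (SD, n = 2), and 14.4% ± 1.43 and 31.7% ± 2.01 in the knockout. Itgav held 19.6% ± 0.406 in WT control and 21.8% ± 1.73 in WT TGF-β, and 18.9% ± 0.349 and 21.4% ± 0.411 in the knockout. Itga5 thus moved from below Itgav to above it in both genotypes. The ratio of Itga5 to Itgav in FPKM was 0.633 to 0.835 in the 4 control libraries and 1.32 to 1.57 in the 4 TGF-β libraries.

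In WT, the gain of Itga5 came with smaller shares for most other α subunits, among them laminin and leukocyte subunits. The shares of Itga11 (1.27% ± 0.818 to 4.79% ± 0.351) and Itga2 (0.246% ± 0.0971 to 0.604% ± 0.197) grew, as that of Itgav did. Itga1 went from 6.64% ± 0.974 to 3.94% ± 0.129 of the α transcripts. Itga7 went from 3.54% ± 0.521 to 3.27% ± 0.238, a change within its control SD, while its mean level rose from 6.06 to 8.35 FPKM. Itga3, another laminin-binding α subunit, fell from 18.4% ± 0.950 to 12.5% ± 0.266 of the α transcripts in WT, Itga6 from 9.25% ± 0.129 to 5.80% ± 0.424, and Itgam, a subunit of macrophages and microglia, from 14.1% ± 3.08 to 8.65% ± 0.739. These are shares of a total that grew, from 164 and 180 FPKM in WT control to 239 and 270 FPKM in WT TGF-β. The log2 fold changes over both genotypes of Itga3 (0.069) and Itgam (0.023) did not pass.

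Among β subunits the make-up changed less. Itgb1 held 64.0% ± 1.11 in WT control and 63.6% ± 2.04 in WT TGF-β, and 61.1% ± 0.142 and 61.2% ± 0.802 in the knockout. Itgb5 held 24.1% ± 1.31 in WT control and 28.2% ± 0.625 in WT TGF-β, and 26.2% ± 0.593 and 29.7% ± 0.576 in the knockout, while Itgb8 went from 4.31% ± 0.0200 to 3.10% ± 0.462 in WT. The ratio of Itgb5 to Itgb8 in FPKM was 4.59 to 6.06 in the control libraries and 8.36 to 10.0 in the TGF-β libraries.

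**Figure D4:**
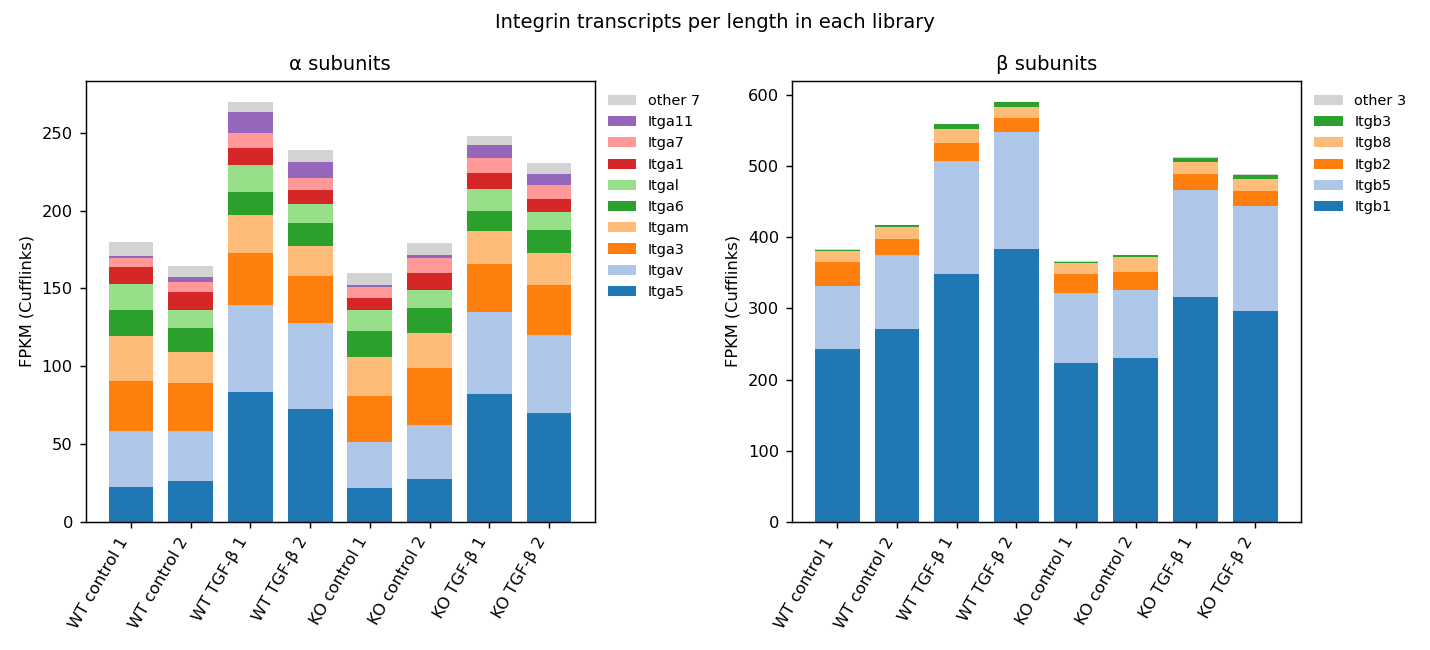
FPKM of integrin α (left) and β (right) subunit transcripts stacked for each library, on linear axes from 0. The Itga5 segment is the largest α segment in all 4 TGF-β libraries, and Itgb1 is the largest β segment in all 8.

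The level of the 9 genes was also compared between libraries. Over the 8 libraries, Pearson's r between log2 CPM values was 0.90 to 0.98 for each pair among Fn1, Itga5, Itga11, Itgav, Itgb1 and Itgb5, and -0.047 to 0.31 between these and Itgb8. Between the same genes and Itga7 it was 0.53 (Itgb1) to 0.82 (Itga5), and for Itga6 it was -0.45 to -0.27. These values describe the same 8 libraries, which differ mainly by TGF-β. Of 6851 other genes with a mean log2 CPM of at least 5, the genes most like Fn1 were Akap13 (r = 0.997), the proteoglycan gene Vcan (0.996) and the kinase gene Lrrk1 (0.995). The genes most like Itgb1 were Smurf2, a ubiquitin ligase of TGF-β signaling (r = 0.998), Snx7 (0.997) and Cercam (0.993). The genes most like Itgb8 were Zyg11b (r = 0.977), Mtmr9 (0.971) and Ppip5k1 (0.962).

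Other genes of the pathway were described over lists of genes, with the TGF-β effect averaged over genotypes, where 6 of the 9 genes above were up-regulated and 8.33% of all genes were (6.75% were down-regulated). Of 12 other integrin subunits tested, 2 were up-regulated and 3 down-regulated, with a median log2 fold change of -0.023. Itgb3, a β partner of αv, rose by 2.08 ± 0.119 (adjusted p = 1.79e-05, edgeR), from 9.06 to 13.6 CPM in the control libraries to 39.6 to 50.5 CPM in the TGF-β libraries. Itga2, the α subunit of a collagen receptor, rose by 1.98 ± 0.254 (adjusted p = 0.000570), and Itgb4, the β subunit of a laminin receptor, changed by -0.77 ± 0.164 (adjusted p = 0.00625).

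Of 22 other integrin ligands, 14 were up-regulated and 2 down-regulated, with a median log2 fold change of 0.91. The laminin chain gene Lama1 rose by 2.89 ± 0.410 (adjusted p = 0.000912, edgeR), the fibrillin gene Fbn1 by 2.24 ± 0.0788 (adjusted p = 4.08e-06) and the tenascin gene Tnc by 2.17 ± 0.401 (adjusted p = 0.00318). The control libraries of Tnc ranged from 207 to 699 CPM and its TGF-β libraries from 1781 to 2453 CPM. Between genotypes, averaged over treatments, Fbn1 was the 1 gene of the 4 lists with an adjusted p under 0.05 (0.50 ± 0.0759, higher in WT, adjusted p = 0.0454), below the fold limit. Fbn1 was named for this after its values were seen.

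Of 24 adaptors and kinases on the cytoplasmic side of integrins, 5 were up-regulated and 0 down-regulated, and 15 rose by the adjusted p alone (25.7% of all genes did). Their median log2 fold change was 0.23. Tns1, a tensin that ties β tails to actin, rose by 1.07 ± 0.0861 (adjusted p = 6.56e-05, edgeR), the α-actinin gene Actn1 by 0.94 ± 0.0554 (adjusted p = 1.99e-05) and the filamin gene Flna by 0.68 ± 0.0629 (adjusted p = 0.000125). Of 12 membrane proteins that associate with integrins or with fibronectin assembly, 1 was up-regulated and 1 down-regulated, with a median of -0.024. These were Plaur, the urokinase receptor, at 1.18 ± 0.0811 (adjusted p = 3.49e-05), and Nrros, which tethers latent TGF-β on microglia, at -0.65 ± 0.142 (adjusted p = 0.00694).

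**Figure D5:**
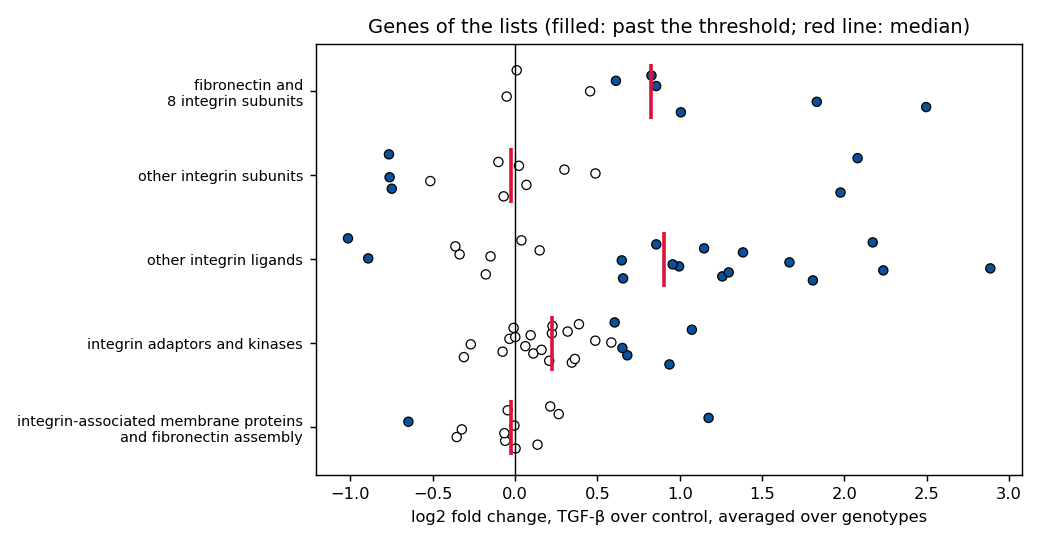
Log2 fold change of TGF-β over control averaged over genotypes for each tested gene of the 5 gene lists, with filled points for genes past the threshold and a red line at the median of each list. The medians are 0.83 for fibronectin and the 8 subunits, 0.91 for the other ligands, 0.23 for adaptors and kinases, -0.023 for the other subunits and -0.024 for the associated membrane proteins.

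The start regions of 6 of the 9 genes, Itga5, Itga11, Itgav, Itgb1, Itgb5 and Itgb8, were read from RefSeq (GRCm38.p6), as 300 bases from 250 before to 50 after the start. Fn1, Itga6 and Itga7 were not matched. Both strands were searched for short elements chosen for their known link to TGF-β, to growth signals or to general transcription. The SMAD element CAGACA, bound by the transcription factors that TGF-β receptors activate, was found in 2 of the 6, Itgb1 and Itgb8, and in 21% of all 32851 start regions. The 2 windows are shown because Itgb1 rose with TGF-β and Itgb8 did not pass, with the element, or its reverse complement TGTCTG, in capitals.
Itgb1, chr8:128685560-128685589 (+ strand): accgagctccttTGTCTGcaccctgcccca
Itgb8, chr12:119238455-119238484 (- strand): tgcccgcgagtgCAGACAggagcttctagg
The Itgb8 window lies inside the span annotated for that gene (chr12:119158022-119238802). The Itgb1 window lies before the annotated span of Itgb1, which begins at chr8:128685654. Whether either match bears on the response was not tested. The MCAT element GGAATG was found in Itgb1 alone (14.7% of all start regions), and the GC box GGGCGG in Itga5, Itgav, Itgb1 and Itgb5 (4 of 6, and 35.7% of all). The SMAD palindrome GTCTAGAC (0.213% of all), the AP-1 site TGACTCA (5.2%) and the cAMP response element TGACGTCA (1.79%) were found in 0 of the 6. Such matches describe the letters of these windows only.

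In GRCm38 (GENCODE M21) the genes lie apart from each other, apart from Itga6 (chr2:71745616-71858416) and Itgav (chr2:83724397-83806916) on the same chromosome. Fn1 spans chr1:71585520-71653200, Itga5 chr15:103344286-103366763, Itga7 chr10:128933818-128958282, Itga11 chr9:62677826-62783982, Itgb1 chr8:128685654-128733200, Itgb5 chr16:33829665-33949338 and Itgb8 chr12:119158022-119238802. Counts were per gene and libraries were unstranded, so neither isoforms nor reads of an overlapping antisense transcript were separated.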

How the data were processed

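Total RNA of primary astrocytes was sequenced from 8 libraries. Reads were aligned with STAR in the VIPER pipeline, and the submitters' processing notes name STAR, Cufflinks, DESeq and mm10. The authors deposited whole-number read counts per gene, not normalized, and a table of FPKM values from Cufflinks for 18644 genes. The authors also deposited tables of their own comparisons (fold changes and p-values), which were not used here. Groups came from the sample labels, and 0 columns of sample values were left unmapped. p-values of the main model rest on the spread between libraries of the same group. That spread was pooled over the 4 groups and drawn toward that of other genes, so it is not particular to the groups compared.

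The count model was fitted with edgeR 4.0.16 under R 4.3.3 (filterByExpr, TMM, quasi-likelihood test, a mean for each of 4 groups), with Benjamini-Hochberg adjustment over 13509 genes and two-sided p-values. Intervals are 95%, CPM is scaled by TMM, and a prior count of 2 entered log2 CPM. limma 3.58.1 and DESeq2 1.42.0 served as alternatives, and limma was run on log2 FPKM with a pseudocount of 1 or 0.1. The procedure was tested on simulated counts, drawn independently for each library from mean levels and spreads estimated in these data. Such counts hold no correlation between same-numbered libraries, so that test does not speak to it. Named genes are the 9 genes, the 3 with the largest change per list among those called, and the 3 most correlated with Fn1, Itgb1 and Itgb8. The genes, the lists and the elements sought in start regions were chosen with earlier results of these data known.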

Additional observations from a re-analysis of the deposited data

How the results depend on the processing

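With 2 libraries in each group, leaving out 1 moved the number of the 9 genes called between 5 and 6 in WT, 4 and 6 in the knockout, and 5 and 6 averaged over genotypes, and kept it at 0 in the other comparisons. In such fits the lone library is taken to vary like the other groups. Bonferroni's correction left 1 gene in WT and 1 in the knockout, in both Itga5. edgeR on the 4 TGF-β libraries called 1 gene between genotypes, Itga11. DESeq2, limma-voom, RLE scaling and no filter on low counts changed none of these counts of the 9. In their deviations from the group means, same-numbered control and TGF-β libraries of a genotype correlated negatively (-0.34 in WT, -0.35 in the knockout), while same-numbered libraries of the 2 genotypes correlated positively (0.49 in control, 0.25 with TGF-β). No source says what the numbers share, so the reported tests have no block. The fit with the replicate number as a block called 6 genes in WT and 5 in the knockout (1616 and 1369 of all genes, against 1806 and 1559 without it). A block that keeps the numbers across genotypes and crosses them between treatments, added after seeing the data, also called 6 and 5 (2105 and 1852 of all genes), and it called 0 of the 9 genes between genotypes, where its counts over all genes were 10 in control, 36 with TGF-β and 61 averaged, against 5, 6 and 17 without a block and 2, 3 and 9 with the straight one. Over all genes, upper quartile scaling moved the share of up-regulated among called genes in WT from 57.8% to 44.8%, and in the knockout from 57.3% to 45.5%. The genotype difference with DESeq2 covered 13 genes in control, 34 with TGF-β and 44 averaged, against 5, 6 and 17 with edgeR.

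Changes of sign touched log2 fold changes near 0. For Itga6 in WT the TGF-β effect became -0.078 with upper quartile scaling, -0.0063 with at least 10 counts in every library, -0.11 with FPKM at either pseudocount and -0.011 on 4 libraries. Itgb8 became -0.027 in WT with upper quartile scaling, and averaged over genotypes -0.075 with that scaling, -0.0062 with at least 10 counts and -0.038 or -0.040 with FPKM at a pseudocount of 1 or 0.1. Between genotypes, Itga6 averaged over treatments became -0.0087 with upper quartile scaling, and Itgb5 in control -0.011 or -0.012 with FPKM at a pseudocount of 1 or 0.1. The cause was not tested. Leaving out 1 library gave TGF-β effects from -0.077 to 0.077 for Itga6 in WT, and for Itgb8 from -0.053 to 0.15 in WT, -0.26 to 0.21 in the knockout and -0.11 to 0.13 averaged. The differences between genotypes in control ran from -0.19 to 0.27 for Itga5, -0.13 to 0.010 for Itga6, -0.79 to 1.21 for Itga11, -0.039 to 0.15 for Itgav, -0.082 to 0.12 for Itgb5 and -0.29 to 0.17 for Itgb8. With TGF-β they ran from -0.024 to 0.15 for Itga6 and -0.085 to 0.12 for Itgb8, and averaged from -0.064 to 0.16 for Itga5, -0.044 to 0.043 for Itga6 and -0.13 to 0.095 for Itgb8. The interaction ran from -0.21 to 0.25 for Itga5, -0.070 to 0.35 for Itga7, -0.36 to 1.64 for Itga11, -0.10 to 0.20 for Itgb1 and -0.15 to 0.31 for Itgb8.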
